A study of Mus musculus with 12 samples.

Results

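The knockout by culture format interaction asks whether the transcriptome difference between Etv4 knockout and control 4T1 cells was the same on a flat surface as inside collagen. For each gene it was the knockout difference in 3D (mean of both knockout clones minus control, log2) minus the same difference in 2D. A positive interaction therefore means that the knockout stood higher relative to its control in 3D than in 2D, and a negative one that it stood lower. All 12 libraries of the series entered it, 2 in each of 6 groups: control, knockout clone 1 and knockout clone 2, each in 2D and in 3D. 4T1 is a mouse mammary carcinoma line. Knockouts were single clones grown out after nucleofection of Cas9 with a guide RNA against Etv4, and the control was a pool of clones that had received a control guide, so a clone's own history and the knockout cannot be told apart within 1 clone. In 2D the cells grew on culture plastic, and in 3D they grew in collagen I gels of 1.2 or 2.4 mg/ml (which library had which is not given) and were freed with collagenase, so that gel, enzyme step and count table changed together and cannot be told apart in the interaction. Nothing in the labels ties the 2 replicates of a group to separate cultures. A p-value then measures the spread between these libraries, which may be technical.

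Etv4 belongs with Etv1 and Etv5 to the PEA3 group of ETS transcription factors. These factors are induced by growth factor signalling through the ERK kinases, and they are known for roles in branching of the mammary gland and in invasion of carcinoma cells, where matrix proteases are among their targets. In a collagen gel, a carcinoma cell meets a fibrous matrix, lower stiffness than plastic and steeper gradients of oxygen and nutrients.

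Libraries held 12.3 to 18.7 M counts in 2D and 26.5 to 33.2 M in 3D, so the 3D side of each difference rested on more reads. Of 31017 genes, 13763 passed the filter on low counts and were tested with edgeR. Levels are given as CPM, counts scaled to a common library size after TMM normalization, and "called" means an adjusted p under 0.05. The long non-coding transcript Gm26917 took 1.75 to 2.03% of the counts in 2D and 10.9 to 15% in 3D, and mitochondrial transcripts took 0.314 to 0.515% and 1.45 to 1.76%. All 8 mammary carcinoma markers were tested, among them Epcam, Cdh1 and the keratins, and their summed level was 5549 to 6058 CPM in 2D and 4394 to 5605 CPM in 3D. Of the leukocyte markers 2 of 8 passed the filter, of the fibroblast markers 2 of 8 and of the endothelial markers 1 of 6. The macrophage markers Adgre1 and Itgam, the fibroblast markers Pdgfrb, Lum and Col3a1 and the endothelial marker Emcn had no count in any library. Summed leukocyte markers (mostly Cd68) stood at 1.68 to 5.53 CPM in 2D and 7.59 to 11.1 CPM in 3D. Fibroblast markers (mostly Pdgfra) stood at 4.05 to 7.23 and 20.5 to 24.2 CPM, and endothelial markers at 8.53 to 14.9 and 3.53 to 5.86 CPM.

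The targeted gene itself kept its RNA in the knockout clones. Etv4 stood in 2D at 78.1 and 76 in the control, 49.8 and 49.2 in clone 1, 49.3 and 46 in clone 2 and in 3D at 94.7 and 99.4 in the control, 69.9 and 69.1 in clone 1, 86.6 and 91.5 in clone 2 (CPM). In 2D both clones lay below the control by about the same amount, whereas in 3D clone 1 lay further below it than clone 2, and no clone's libraries overlapped with the control's. Etv4 lies on chromosome 11. There the median of 1124 tested genes against the control was -0.38 in 2D and -0.43 in 3D in clone 1. In clone 2 it was -0.09 and 0.02 (log2). How far Etv4 RNA follows its chromosome was not tested. The interaction of Etv4 was 0.36 ± 0.08 (SE, adjusted p = 0.004), made of 0.16 (adjusted p = 0.34) in clone 1 and 0.57 (adjusted p = 5.5e-05) in clone 2, and without control 3D replicate 1 its adjusted p was 0.061. An RNA level does not test a frame-shifting edit, and Etv4 protein was not analysed here. Etv1 stood at -0.42 ± 0.09 (SE, adjusted p = 0.005), with a knockout difference of 0.51 in 2D and 0.09 in 3D, and Etv5 at -0.06 ± 0.09 (SE, adjusted p = 0.8).

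Across the genome, the knockout difference depended on the format in 1102 genes, 8.01% of those tested. It was higher in 3D for 389 (2.83%) and lower for 713 (5.18%), and 105 of the former (0.763%) and 42 of the latter (0.305%) passed 2-fold. For scale, 4891 genes (35.5%) were called between knockout and control in 2D and 3984 (28.9%) in 3D. Both tests used the same estimate of spread, shared by all 6 groups, although the 2D libraries varied more than the 3D ones. That estimate favours calls in 2D over calls in 3D. Counts of calls in 2D, here and below, therefore cannot be weighed directly against those in 3D. In the mean of both clones, the main shape was a difference that was larger in size on plastic than in collagen. This held for 305 of the 389 higher genes and 525 of the 713 lower ones. The same share over all genes was not counted. Over all genes tested, the 5th to 95th percentile of this mean difference ran from -1.58 to 1.00 in 2D. In 3D it ran from -0.68 to 0.53 (log2), so a wider spread on plastic was not particular to the called genes. Clones on opposite sides of the control cancel in such a mean, as C3, Mmp3, Txnip and Id2 show below in 3D. Taken singly, clone 1 had 2719 genes called higher and 2752 lower than the control in 2D, and 3034 and 3167 in 3D. Clone 2 had 2596 and 2065 in 2D and 1631 and 2392 in 3D. Of the 389 higher genes, 174 had a knockout difference called in 2D only, 65 in 3D only, 103 in both formats with the same sign (94 of them smaller in 3D), 38 in both with opposite signs and 9 in neither. Their median knockout difference was -0.55 in 2D and 0.04 in 3D (log2). Of the 713 lower genes, 370 were called in 2D only, 139 in 3D only, 129 in both with the same sign (107 smaller in 3D), 63 with opposite signs and 12 in neither, and the medians were 0.32 and -0.05. The genes were chosen by this very difference, so these counts describe them and test nothing further. Seen from the other side, 222 of the 389 higher genes were higher in 3D than in 2D in control and knockout alike. Of the rest, 83 were lower in both and 84 of opposite sign. For the 713 lower genes the numbers were 252, 368 and 93. This split was not counted over all genes.

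**Figure D1:**
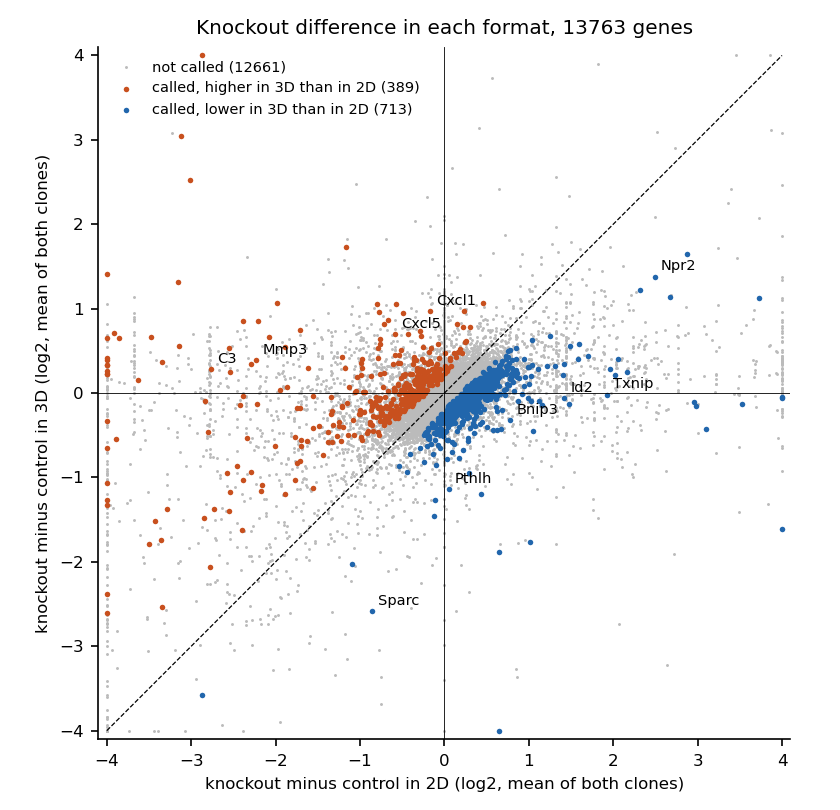
Each point is 1 of 13763 genes, placed by its knockout minus control difference in 2D (horizontal) and in 3D (vertical), both in log2 units and as the mean of both clones; values beyond ±4 are drawn at the edge, where genes with few or no counts in a group collect. Called genes lie off the dashed line of equal difference, the 389 higher ones above it and the 713 lower ones below it.

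Leaving out a library also changes the estimate of spread that all 6 groups share, and the 3D libraries varied less than the 2D ones. The count for clone 1 fell without a clone 2 3D library too, although that library has no part in the clone 1 contrast. A fall therefore cannot tell whether calls rest on the library left out. In the mean, the count of calls was lower without a 3D library. It was 537 without control 3D replicate 1, 403 without control 3D replicate 2, 671 without clone 1 3D replicate 2, 643 without clone 2 3D replicate 1 and 713 without clone 2 3D replicate 2, against 1102 with all 12. The split between directions leaned on the scaling: 527 higher and 459 lower were called with Gm26917 and Gm42418 left out of the library sizes, and 459 and 527 with RLE size factors. With no filter on low counts, 592 higher and 653 lower were called among the larger number of genes then tested. The median over all genes was -0.03 (log2), so a list is read below against that value.

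Taken clone by clone, the interaction was called in 966 genes in clone 1 (7.02%; 492 higher, 474 lower) and in 3059 in clone 2 (22.2%; 1022 higher, 2037 lower). Both clones are set against the same control libraries, and their values are therefore given side by side. Called in the mean and in each clone were 73 higher genes (0.53% of those tested) and 150 lower ones (1.09%). Among these the 12 largest in each direction, with limits on level and counts, supplied the individual genes described first. In clone 1 the split was 694 higher and 371 lower without Gm26917 and Gm42418, 600 and 393 with RLE size factors and 641 and 386 with each chromosome centred; in clone 2 it was 1231 and 1577 without the 2 transcripts. For clone 1 the total fell to 497 and 429 without control 3D replicates 1 and 2 and to 537 and 455 without clone 1 3D replicates 1 and 2, and for clone 2 to 1890 without clone 2 3D replicate 1 and 1963 without control 3D replicate 2.

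C3, the central component of complement, had the largest positive interaction among the genes that were called in the mean and in each clone and met the limits on level and counts. C3 stood in 2D at 7.13 and 6.41 in the control, 0.559 and 0.723 in clone 1, 1.52 and 1.56 in clone 2 and in 3D at 70.1 and 64.9 in the control, 46.7 and 42.8 in clone 1, 152 and 151 in clone 2 (CPM). In 2D the control libraries lay above both clones. In 3D clone 2 lay above the control and clone 1 below it, with no overlap between groups. The knockout difference was -2.77 in 2D and 0.29 in 3D, and the interaction was 3.05 ± 0.20 (SE, adjusted p = 7.5e-11), with 2.81 (adjusted p = 1.4e-07) in clone 1 and 3.30 (adjusted p = 1.9e-11) in clone 2. In clone 1 in 2D the gene rested on 17 counts over both libraries.

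Matrix proteases followed. Mmp3 encodes stromelysin-1, which cleaves several matrix proteins and activates other proteases. Mmp3 stood in 2D at 39.3 and 40.5 in the control, 11 and 12.5 in clone 1, 6.83 and 5.33 in clone 2 and in 3D at 58.7 and 63 in the control, 185 and 199 in clone 1, 31.2 and 35.2 in clone 2 (CPM). Both clones were several fold below the control on plastic, whereas in collagen clone 1 was above it and clone 2 below it. Its interaction was 2.62 ± 0.11 (SE, adjusted p = 1.5e-14), with 3.42 (adjusted p = 4.1e-16) in clone 1 and 1.82 (adjusted p = 3.1e-09) in clone 2 and a difference between the clones of -1.61 (adjusted p = 8e-08). Mmp10, a second stromelysin, had an interaction of 2.08 ± 0.23 (SE, adjusted p = 8.4e-07), made of 3.54 (adjusted p = 4e-09) in clone 1 and 0.63 (adjusted p = 0.082) in clone 2. Mmp9, a gelatinase, had 0.96 ± 0.11 (SE, adjusted p = 1.1e-06), and its knockout difference was -0.94 in 2D and 0.02 in 3D. Mmp9 stood in 2D at 44.6 and 50.9 in the control, 24.2 and 27.8 in clone 1, 26.1 and 21.2 in clone 2 and in 3D at 92 and 105 in the control, 73.6 and 77.4 in clone 1, 129.5 and 133 in clone 2 (CPM). On plastic both clones lay below the control, while in collagen clone 1 remained below and clone 2 was above. Plau, the urokinase that turns plasminogen into plasmin, had 0.63 ± 0.07 (SE, adjusted p = 3.1e-06). Of 26 tested genes of 29 on the list of matrix proteases and their inhibitors, 5 were called higher and 3 lower, beside 2.83% and 5.18% of all genes, with a median of 0.18 (0.10 without the 6 genes that had 3 counts or fewer in some group). The lower ones included the inhibitor Timp1 at -0.48 (adjusted p = 0.0025) and the protease Mmp11 at -0.68 (adjusted p = 0.0072), which were chosen for naming after their values were seen. On this list clone 1 had 9 genes higher and 3 lower (median 0.44; 3.57% and 3.44% of all genes) and clone 2 4 and 4 (median -0.11; 7.43% and 14.8%). The difference of the clones, clone 2 minus clone 1, called 5 higher and 12 lower (10.8% and 18.9% of all genes), with a median of -0.67, or -0.61 without the 6 genes.

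Neutrophil-attracting chemokines were also among the genes with a positive interaction. Cxcl1 and Cxcl5 encode ligands of the receptor CXCR2 and are classical targets of NF-kB, the transcription factor of inflammatory signalling. The window around the start of Cxcl1 (chr5:90890995-90891294, plus strand; GRCm38.p6, RefSeq) is printed because it shows 2 matches to the NF-kB motif (GGG, 2 free bases, then TTTCC), searched on both strands and given in capitals.
Cxcl1: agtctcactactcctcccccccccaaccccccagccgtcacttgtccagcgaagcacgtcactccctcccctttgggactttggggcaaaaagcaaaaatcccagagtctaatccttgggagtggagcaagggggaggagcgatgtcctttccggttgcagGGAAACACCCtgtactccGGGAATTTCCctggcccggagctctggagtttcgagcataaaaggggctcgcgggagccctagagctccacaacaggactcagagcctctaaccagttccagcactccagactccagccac
This motif is held by 1.63% of the 32851 promoter windows of the same length, and a match is only a description of the letters. Cxcl1 stood in 2D at 45.8 and 45 in the control, 32.4 and 30.7 in clone 1, 51.2 and 51.1 in clone 2 and in 3D at 98.2 and 102 in the control, 213 and 228 in clone 1, 174 and 175 in clone 2 (CPM). In 2D clone 1 lay below and clone 2 above the control, and in 3D both clones lay above it with no overlap. The interaction of Cxcl1 was 1.15 ± 0.08 (SE, adjusted p = 1.6e-10), with 1.66 (adjusted p = 1.3e-12) in clone 1 and 0.63 (adjusted p = 8.6e-06) in clone 2. Cxcl5 stood in 2D at 56.2 and 48.5 in the control, 41.1 and 42.8 in clone 1, 30.9 and 26.9 in clone 2 and in 3D at 35.7 and 32.7 in the control, 57.3 and 58.5 in clone 1, 52.1 and 54.2 in clone 2 (CPM). Control libraries were the highest of the 2D groups and the lowest of the 3D groups. The interaction of Cxcl5 was 1.28 ± 0.10 (SE, adjusted p = 4.7e-09), with 1.08 (adjusted p = 6.6e-07) in clone 1 and 1.49 (adjusted p = 4.4e-09) in clone 2. Cxcl16, a membrane-bound chemokine, had 0.69 ± 0.07 (SE, adjusted p = 5.8e-07), and Tnfaip3, the A20 protein that damps NF-kB, had 0.43 ± 0.07 (SE, adjusted p = 0.00021). Of 27 tested genes of 30 on the NF-kB list, 8 were called higher and 0 lower in the mean, beside 2.83% and 5.18% of all genes, with a median of 0.26. In clone 1 it was 10 higher and 0 lower (3.57% and 3.44% of all genes), and in clone 2 9 and 3 (7.43% and 14.8%). Between knockout and control, 2 of its genes were called higher and 13 lower in 2D (17.9% and 17.6% of all genes). In 3D the counts were 7 and 2 (11.5% and 17.4%), both as the mean of the clones. Taken singly, clone 1 had 1 higher and 14 lower in 2D and 7 and 7 in 3D. Clone 2 had 3 and 8 in 2D and 13 and 6 in 3D. Over all genes tested, the 3D counts were 3034 and 3167 in clone 1 and 1631 and 2392 in clone 2. Without control 3D replicate 1 the list had 5 higher calls in the mean and 6 in clone 1, where it also had 6 without clone 1 3D replicate 2.

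**Figure D2:**
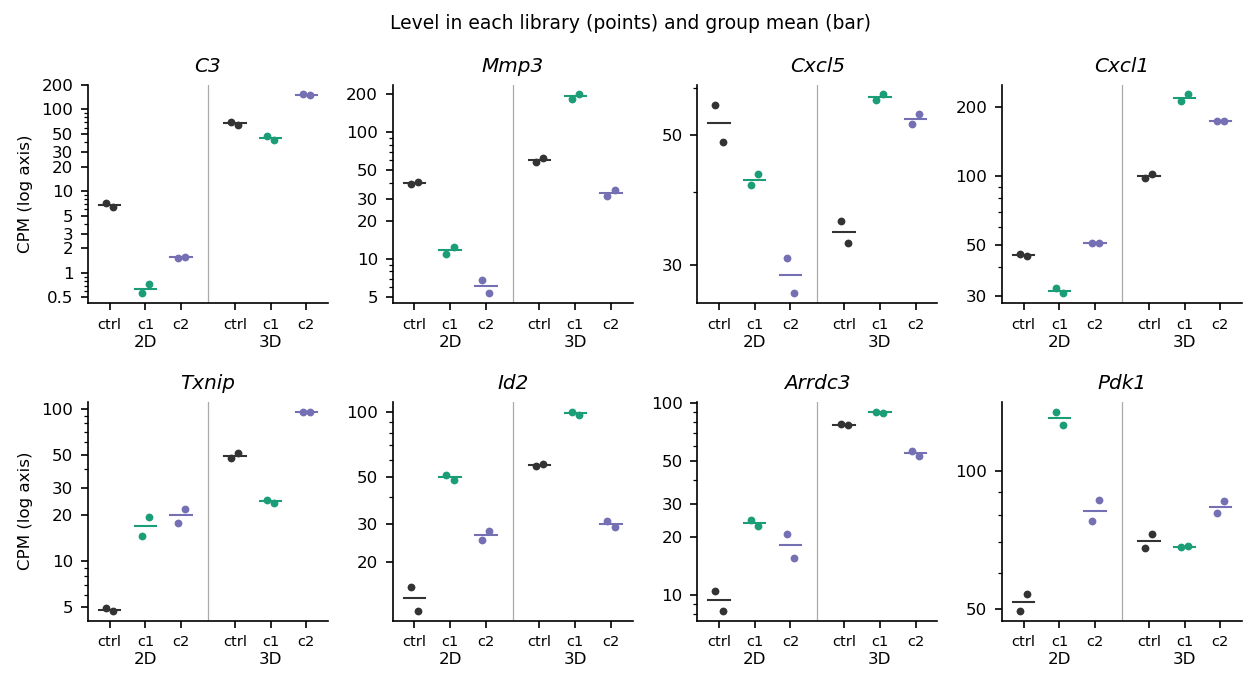
Each panel plots the level of 1 gene in CPM on a log axis, with its own range, for the control (ctrl), clone 1 (c1) and clone 2 (c2) in 2D and 3D; points are the 2 libraries of a group and the bar is their mean. For C3, Mmp3 and Cxcl5 the control is the highest group in 2D, and for Txnip, Id2, Arrdc3 and Pdk1 it is the lowest group in 2D, whereas in 3D the control is the lowest group for Cxcl1 and Cxcl5 and lies between the clones for C3, Mmp3, Txnip, Id2 and Arrdc3.

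The other named genes with a positive interaction had differing functions. Slc7a11, the cystine transporter that feeds glutathione synthesis, stood at 1.12 ± 0.21 (SE, adjusted p = 0.0016), from a knockout difference of -1.33 in 2D and -0.21 in 3D. Ppif, the mitochondrial cyclophilin D, stood at 1.03 ± 0.11 (SE, adjusted p = 7.5e-07) and turned from -0.29 to 0.74; 18.3% of its exon length overlaps a gene on the other strand. Stab1, a scavenger receptor, stood at 1.05 ± 0.14 (SE, adjusted p = 1.8e-05) and was lower in the knockout in both formats, at -1.62 in 2D and -0.57 in 3D. Slc4a11, a membrane transporter of the bicarbonate transporter family, stood at 1.20 ± 0.14 (SE, adjusted p = 2e-06). Psg17, a pregnancy-specific glycoprotein, stood at 1.53 ± 0.27 (SE, adjusted p = 0.00049). Olfm1, a secreted olfactomedin, stood at 1.03 ± 0.16 (SE, adjusted p = 0.00019). mt-Nd6 stood in 2D at 7.76 and 12.1 in the control, 5.24 and 8.2 in clone 1, 3.91 and 5.19 in clone 2 and in 3D at 399 and 315 in the control, 418 and 457 in clone 1, 376 and 396 in clone 2 (CPM). This gene encodes a subunit of respiratory complex I and is read from the light strand of the mitochondrial genome. All its 3D libraries were far above its 2D libraries, and its interaction was 1.08 ± 0.21 (SE, adjusted p = 0.0018); without control 2D replicate 2 it was 0.71 (adjusted p = 0.09). Of 12 tested mitochondrial genes, 1 was called higher and 0 lower (2.83% and 5.18% of all genes).

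Genes of glycolysis and of the hypoxia response formed the list with the lowest median interaction among the lists with 8 or more tested genes. They encode glycolytic enzymes and targets of HIF-1, the oxygen-sensitive transcription factor that binds the core ACGTG. Of 38 tested genes of 40, 18 were called lower and 0 higher in the mean, beside 5.18% and 2.83% of all genes, and the median was -0.33 against -0.03 for all genes. Clone 1 had 21 lower and 0 higher (median -0.45), beside 3.44% and 3.57% of all genes, and clone 2 19 lower and 3 higher (median -0.29), beside 14.8% and 7.43%. In 2D the mean of both clones was called above the control in 20 of the genes and below it in 4 (17.9% and 17.6% of all genes). In 3D this mean was above it in 1 and below it in 17 (11.5% and 17.4%). Each clone alone had 20 above and 4 below in 2D. In 3D clone 1 had 3 above and 19 below, whereas clone 2 had 10 above and 8 below. Over all genes tested, the 3D counts were 3034 and 3167 in clone 1 and 1631 and 2392 in clone 2. Over the alternative settings, the number of lower calls in the mean ranged from 9, when only genes without overlap were tested, to 20.

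Promoter windows of 3 of these genes are shown for their ACGTG cores, searched on both strands and given in capitals; where the core reads CACGTG, the matches on both strands overlap. Sequences are RefSeq windows on GRCm38.p6, read on the strand of the gene: Ldha at chr7:46845554-46845853, plus strand, Bnip3 at chr7:138909457-138909756, minus strand and Pgk1 at chrX:106186850-106187149, plus strand.
Ldha: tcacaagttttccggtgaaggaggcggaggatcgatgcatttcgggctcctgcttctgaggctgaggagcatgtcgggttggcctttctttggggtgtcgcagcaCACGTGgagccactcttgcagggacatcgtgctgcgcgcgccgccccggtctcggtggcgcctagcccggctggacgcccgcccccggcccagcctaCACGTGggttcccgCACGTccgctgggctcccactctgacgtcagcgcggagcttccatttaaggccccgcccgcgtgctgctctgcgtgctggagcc
Bnip3: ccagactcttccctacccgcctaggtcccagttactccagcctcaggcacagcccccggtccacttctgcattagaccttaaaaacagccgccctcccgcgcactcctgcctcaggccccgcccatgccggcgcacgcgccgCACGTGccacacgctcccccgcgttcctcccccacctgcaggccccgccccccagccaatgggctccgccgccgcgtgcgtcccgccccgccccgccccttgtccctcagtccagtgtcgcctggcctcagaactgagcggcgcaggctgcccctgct
Pgk1: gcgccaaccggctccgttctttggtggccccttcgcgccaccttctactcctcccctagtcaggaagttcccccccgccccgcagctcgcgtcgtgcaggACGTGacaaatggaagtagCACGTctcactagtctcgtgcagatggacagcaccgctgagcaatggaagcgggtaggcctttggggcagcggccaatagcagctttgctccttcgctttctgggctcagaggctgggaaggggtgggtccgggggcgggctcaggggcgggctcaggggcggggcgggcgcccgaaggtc
ACGTG was found in 19.6% of all 32851 windows, in 18 of the 35 list genes with a window (51.4%) and in 7 of the 17 with a window that were called lower (41.2%): Bnip3, Pgk1, Ldha, Gapdh, Pgam1, P4ha1 and Higd1a. The share was thus lower among the genes called lower than over the list, a difference that was not tested.

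Bnip3, which marks mitochondria for removal, showed the pattern of the list most strongly among the named genes. Bnip3 stood in 2D at 25 and 24.2 in the control, 42 and 38.9 in clone 1, 41.4 and 46.7 in clone 2 and in 3D at 32.1 and 32 in the control, 19.6 and 18.1 in clone 1, 34 and 35.9 in clone 2 (CPM). On plastic both clones were above the control. In collagen clone 1 was below it and clone 2 slightly above. Its interaction was -1.10 ± 0.11 (SE, adjusted p = 2.5e-07), with -1.49 (adjusted p = 1.1e-08) in clone 1 and -0.71 (adjusted p = 0.00018) in clone 2; 22.2% of its exon length overlaps a gene on the other strand. Pdk1 stood in 2D at 49.5 and 53.9 in the control, 135 and 126 in clone 1, 77.6 and 86.3 in clone 2 and in 3D at 67.9 and 72.8 in the control, 68.2 and 68.5 in clone 1, 80.8 and 86.1 in clone 2 (CPM). Pdk1 encodes a kinase that inhibits pyruvate dehydrogenase. In 2D the clones lay well above the control, and in 3D clone 1 overlapped with the control while clone 2 lay above it. The interaction of Pdk1 was -0.89 ± 0.09 (SE, adjusted p = 1e-07), with -1.38 (adjusted p = 1.8e-10) in clone 1 and -0.41 (adjusted p = 0.0032) in clone 2. Ldha, lactate dehydrogenase A, had -0.67 ± 0.07 (SE, adjusted p = 2.2e-07). Ldha stood in 2D at 1017 and 991 in the control, 1382 and 1272 in clone 1, 1411 and 1514 in clone 2 and in 3D at 569 and 604 in the control, 554 and 525 in clone 1, 485 and 489 in clone 2 (CPM). Clones were the higher groups on plastic and the lower groups in collagen. Aldoa, an aldolase, had -0.60 ± 0.06 (SE, adjusted p = 2.9e-07), with a knockout difference of 0.57 in 2D and -0.02 in 3D. Pgk1, phosphoglycerate kinase, whose window is printed above, had -0.59 ± 0.07 (SE, adjusted p = 1.4e-06).

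Txnip had the largest negative interaction among the genes called in the mean and in each clone that met the limits on level and counts. It encodes an arrestin-like protein that restrains glucose uptake and binds thioredoxin, and Arrdc3 is a relative of it. Txnip stood in 2D at 4.89 and 4.72 in the control, 14.7 and 19.4 in clone 1, 17.9 and 22 in clone 2 and in 3D at 47.3 and 50.9 in the control, 25.3 and 23.9 in clone 1, 95.4 and 95.5 in clone 2 (CPM). The control was the lowest group in 2D by a wide margin; in 3D it lay between clone 1 below and clone 2 above. The interaction of Txnip was -1.95 ± 0.16 (SE, adjusted p = 7.4e-09), with -2.81 (adjusted p = 3.1e-11) in clone 1 and -1.08 (adjusted p = 9.4e-05) in clone 2, and 19.4% of its exon length overlaps a gene on the other strand. Arrdc3 stood in 2D at 10.5 and 8.3 in the control, 24.5 and 23.1 in clone 1, 20.9 and 15.6 in clone 2 and in 3D at 78 and 77 in the control, 90.5 and 88.9 in clone 1, 56.8 and 53.3 in clone 2 (CPM). Here too both clones were above the control on plastic, while in collagen clone 1 was above and clone 2 below it. Its interaction was -1.30 ± 0.14 (SE, adjusted p = 4.4e-07).

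Inhibitors of differentiation, which are targets of BMP signalling, had negative interactions as well. Id2 stood in 2D at 15.3 and 11.9 in the control, 51 and 48.4 in clone 1, 25.4 and 27.9 in clone 2 and in 3D at 56.1 and 57.2 in the control, 100.2 and 96.6 in clone 1, 31 and 29.1 in clone 2 (CPM). The control was again the lowest 2D group, and in 3D it fell between the clones. The interaction of Id2 was -1.48 ± 0.12 (SE, adjusted p = 3.5e-09), with -1.08 (adjusted p = 2.3e-06) in clone 1 and -1.88 (adjusted p = 3.1e-10) in clone 2. Id1 had -0.99 ± 0.13 (SE, adjusted p = 1.7e-05), made of -0.34 (adjusted p = 0.18) in clone 1 and -1.65 (adjusted p = 2.3e-08) in clone 2, and Id3 had -0.61 ± 0.08 (SE, adjusted p = 1e-05). Of 18 tested genes of 20 on the TGF-beta and BMP list, 1 was called higher and 6 lower, beside 2.83% and 5.18% of all genes, with a median of -0.20.

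Several genes of the extracellular matrix also had negative interactions in the mean of both clones. Sparc encodes a collagen-binding matrix protein. Sparc stood in 2D at 105 and 102 in the control, 168 and 163 in clone 1, 19 and 20.3 in clone 2 and in 3D at 64.6 and 66.6 in the control, 75.9 and 79.9 in clone 1, 1.64 and 1.42 in clone 2 (CPM). The clones differed: clone 1 was above the control in both formats, and clone 2 was below it in both and far lower in 3D. The interaction of Sparc, -1.72 ± 0.10 (SE, adjusted p = 6.6e-12), came mainly from clone 2, with -0.43 (adjusted p = 0.0021) in clone 1 and -3.01 (adjusted p = 2e-13) in clone 2. Fn1, fibronectin, had -0.85 ± 0.07 (SE, adjusted p = 4.7e-09). Fn1 stood in 2D at 488 and 535 in the control, 717 and 681 in clone 1, 538 and 556 in clone 2 and in 3D at 1378 and 1276 in the control, 821 and 865 in clone 1, 966 and 928 in clone 2 (CPM). In 2D both clones were above the control, and in 3D both were below it. Col18a1, a basement membrane collagen, had -0.41 ± 0.07 (SE, adjusted p = 0.00019). Of 24 tested genes of 30 on the list of matrix components, 1 was called higher and 8 lower in the mean, beside 2.83% and 5.18% of all genes, with a median of -0.11 (-0.17 without 4 genes with 3 counts or fewer in some group). Clone 1 had 2 higher and 7 lower (median -0.25; 3.57% and 3.44% of all genes), and clone 2 had 7 higher and 8 lower (median -0.02; 7.43% and 14.8%). The lower calls of clone 1 were 3 without control 3D replicate 1 or clone 1 3D replicate 1 and 4 without control 3D replicate 2 or with each chromosome centred.

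Of the remaining named genes with a negative interaction, Pthlh, the parathyroid hormone-related protein of breast cancer bone disease, differed from the others in its shape: its knockout difference was 0.05 in 2D and -1.14 in 3D. Pthlh stood in 2D at 2.45 and 1.15 in the control, 3.01 and 1.77 in clone 1, 1.57 and 1.21 in clone 2 and in 3D at 28.9 and 28.7 in the control, 17.2 and 18.1 in clone 1, 10.5 and 8.79 in clone 2 (CPM). On plastic all 6 libraries were low and the groups overlapped, whereas in collagen both clones lay below the control. The interaction of Pthlh was -1.19 ± 0.31 (SE, adjusted p = 0.018) and its adjusted p passed 0.05 when single libraries were left out, reaching 0.16 without control 2D replicate 2. Lypd3, a surface protein of the Ly6 family, had -1.19 ± 0.15 (SE, adjusted p = 1e-05), with 13.6% of exon length overlapping a gene on the other strand. Tbc1d8, a GTPase-activating protein, had -1.18 ± 0.20 (SE, adjusted p = 0.00036). Pdcd4, an inhibitor of translation initiation, had -1.12 ± 0.23 (SE, adjusted p = 0.0032), from a knockout difference of 1.03 in 2D and -0.09 in 3D. Cubn, the endocytic receptor cubilin, had -1.04 ± 0.18 (SE, adjusted p = 0.00042). Npr2, a receptor for natriuretic peptide, and Mrgpre, a G protein-coupled receptor, had -1.11 ± 0.29 (SE, adjusted p = 0.018) and -1.07 ± 0.23 (SE, adjusted p = 0.0046). These last 2 depend on the log scale: as a difference of CPM differences the interaction was 1.60 CPM for Npr2 and 0.674 CPM for Mrgpre, positive in both. Npr2 stood in 2D at 0.839 and 2.29 in the control, 12.5 and 11 in clone 1, 7.16 and 6.19 in clone 2 and in 3D at 5.54 and 5.8 in the control, 16.6 and 17.6 in clone 1, 12.4 and 13.1 in clone 2 (CPM). The knockout difference in CPM was about as large in both formats, and the control's level was lower in 2D. Without control 2D replicate 1 the interaction of Npr2 was -0.57 (adjusted p = 0.22). Over all called genes, 24 of the 389 higher and 28 of the 713 lower had the opposite sign in CPM.

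**Figure D3:**
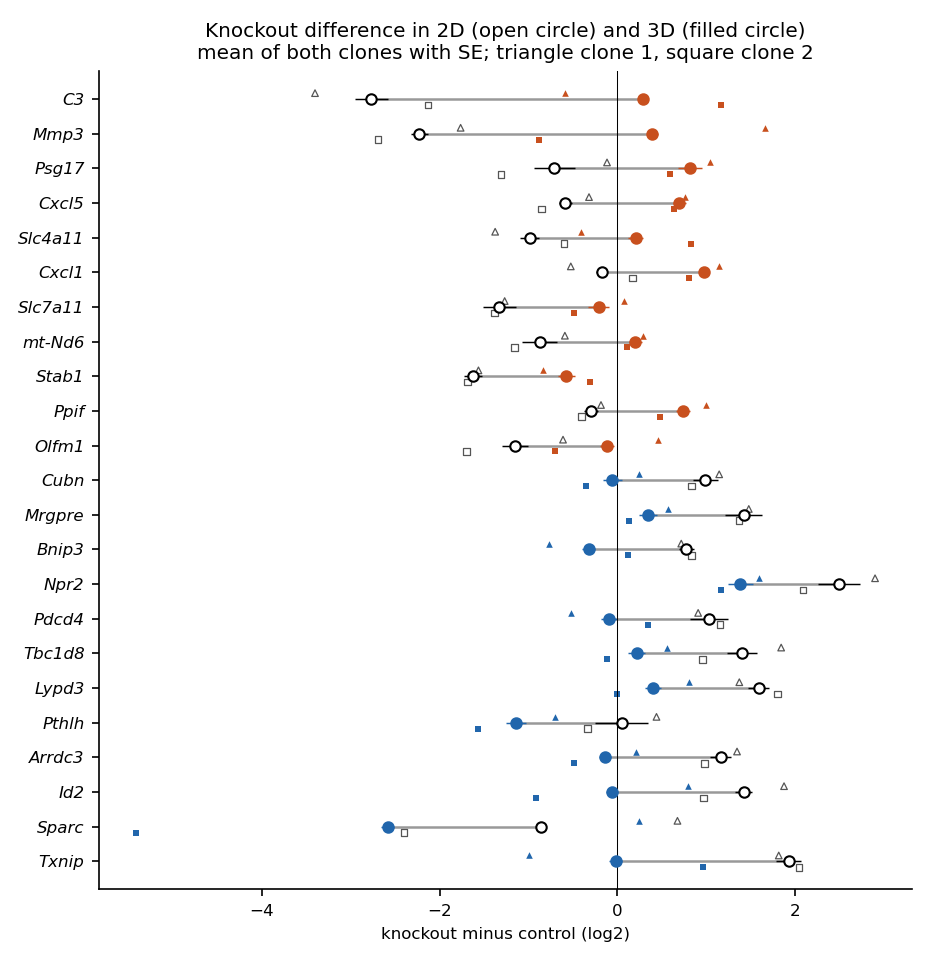
For each of 23 named genes, the open circle is the knockout minus control difference in 2D and the filled circle that in 3D (log2, mean of both clones, bars ± SE), with clone 1 as triangles and clone 2 as squares, open in 2D and filled in 3D. For the upper 11 genes the filled circle lies to the right of the open one and for the lower 12 to the left, and in most genes the filled circle is nearer to 0.

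Many cytoskeletal and ribosomal genes had negative interactions too. Of 23 tested genes of 25 on the list of actin and SRF targets, 15 were called lower and 0 higher, beside 5.18% and 2.83% of all genes, with a median of -0.21. Clone 1 had 6 lower and 0 higher (3.44% and 3.57% of all genes) and clone 2 14 and 0 (14.8% and 7.43%). With RLE size factors the lower calls in the mean were 9, and without Gm26917 and Gm42418 they were 8. Cnn2, a calponin that stabilises actin filaments, had -0.71 ± 0.08 (SE, adjusted p = 5.8e-07), and its knockout difference turned from 0.33 to -0.38. Cnn2 stood in 2D at 196 and 185 in the control, 200.4 and 176 in clone 1, 288 and 322 in clone 2 and in 3D at 186 and 196 in the control, 125 and 122 in clone 1, 173 and 177 in clone 2 (CPM). Clone 2 was above the control on plastic, clone 1 overlapped with it there, and both clones were below it in collagen. Actg1, cytoplasmic gamma-actin, had -0.49 ± 0.06 (SE, adjusted p = 1.1e-05), Zyx, the focal adhesion protein zyxin, had -0.50 ± 0.08 (SE, adjusted p = 0.00015), and Tpm4, a tropomyosin, had -0.36 ± 0.06 (SE, adjusted p = 0.00033). The list had 7 lower calls without either control 3D replicate, 8 without clone 1 2D replicate 1, clone 2 2D replicate 2, clone 1 3D replicate 2 or clone 2 3D replicate 2, and 9 without clone 2 3D replicate 1. Of 47 tested cytosolic ribosomal protein genes, 24 were called lower and 0 higher, beside 5.18% and 2.83% of all genes, with a median of -0.21. In 2D the mean of both clones was called above the control in 25 of them and below it in 5 (17.9% and 17.6% of all genes). In 3D this mean was above in 2 and below in 23 (11.5% and 17.4%). Clone 1 alone had 15 above and 10 below in 2D and 5 and 25 in 3D. Clone 2 alone had 27 and 2 in 2D and 1 and 10 in 3D. Rps6 had -0.37 ± 0.06 (SE, adjusted p = 0.00033), Rpl11 -0.37 ± 0.07 (SE, adjusted p = 0.0022) and Rpl35 -0.33 ± 0.06 (SE, adjusted p = 0.0019); Rpl35 shares 66.2% of its exon length with a gene on the other strand. Ribosomal protein genes have many near-identical pseudogene copies, which makes their counts uncertain. The number of lower ribosomal calls was 4 without control 3D replicate 2, 12 without control 2D replicate 2, 14 without clone 1 3D replicate 2, and 15 without control 3D replicate 1 or clone 2 3D replicate 1. In clone 1 alone, where 14 were called lower (3.44% of all genes), it was 9 with each chromosome centred and 4 to 9 without control 3D replicate 1 or 2, clone 1 2D replicate 1 or clone 1 3D replicate 1 or 2.

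**Figure D4:**
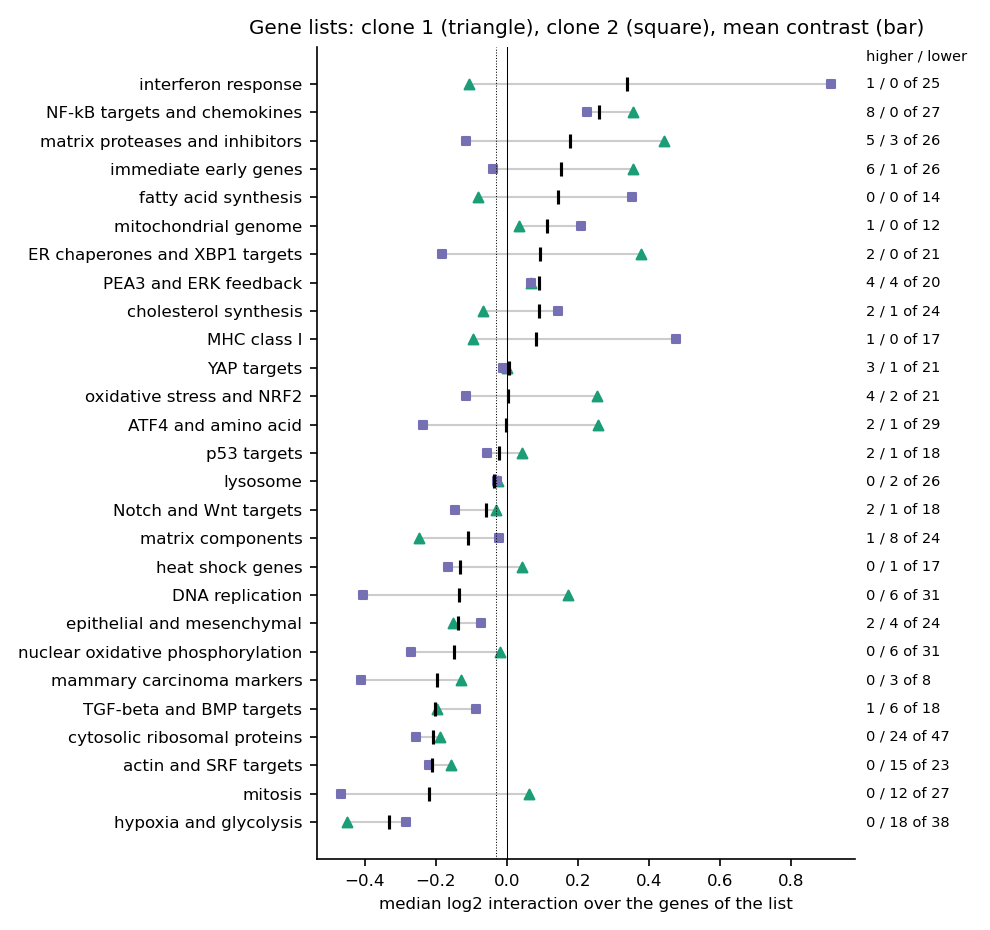
Each row is a gene list with 8 or more tested genes, with the median log2 interaction of its genes in clone 1 (triangle), in clone 2 (square) and in the mean contrast (black bar); the dotted line is the median of all genes, -0.03. Numbers at the right are genes called higher and lower in the mean contrast, from 0 and 18 of 38 for hypoxia and glycolysis to 8 and 0 of 27 for the NF-kB list.

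The 2 clones differed from each other in how format changed them. The test of that difference, clone 2 minus clone 1, in which the control cancels, called 4095 genes (29.8%): the interaction was higher in clone 2 for 1491 (10.8%) and lower for 2604 (18.9%). Over all genes the interaction was called higher in 3.57% and lower in 3.44% in clone 1 and in 7.43% and 14.8% in clone 2, so that a count in clone 2 is read against a larger share. The mean interaction had 1102 calls.

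Genes of DNA replication and mitosis had lower interactions in clone 2 than in clone 1 in this test. All 31 replication genes were tested. In clone 1 6 were called higher and 0 lower (median 0.17; 3.57% and 3.44% of all genes), in clone 2 1 higher and 24 lower (median -0.40; 7.43% and 14.8%), and the difference of the clones called 25 lower and 1 higher (18.9% and 10.8%). Of 27 mitosis genes clone 1 had 1 higher and 0 lower and clone 2 0 higher and 24 lower, and the difference called 26 lower and 0 higher. In the mean contrast the replication genes had 6 lower and 0 higher and the mitosis genes 12 and 0 (5.18% and 2.83% of all genes). Without Gm26917 and Gm42418 the lower calls in the mean were 3 and 5, and the higher replication calls in clone 1 were 12; with each chromosome centred the latter were 10. Leaving out any 1 library moved the clone 2 counts and the counts of the difference by less than 1.5 times, whereas the clone 1 count for replication was 2 or 3 without control 3D replicate 1 or 2, clone 1 2D replicate 2 or clone 1 3D replicate 1 or 2. The mitosis count of the mean was 4 without control 3D replicate 1, 5 without control 3D replicate 2, 6 without clone 2 3D replicate 1 and 7 without clone 1 3D replicate 2 or clone 2 3D replicate 2. Rrm1, the large subunit of ribonucleotide reductase, had the smallest p and the lowest interaction of the replication list in the mean contrast. Rrm1 stood in 2D at 275 and 288 in the control, 394 and 331 in clone 1, 407 and 413 in clone 2 and in 3D at 177 and 180.5 in the control, 224 and 212 in clone 1, 152 and 148 in clone 2 (CPM). In 2D both clones lay above the control, and in 3D clone 1 was above it while clone 2 was below it. Its interaction was -0.08 (adjusted p = 0.67) in clone 1 and -0.79 (adjusted p = 3.6e-07) in clone 2, and the difference was -0.72 ± 0.09 (SE, adjusted p = 7.7e-07). Lig1, DNA ligase 1, had 0.05 and -0.75 in clones 1 and 2, Cenpf, a kinetochore protein, -0.16 and -0.88, and Aurka, the mitotic kinase Aurora A, -0.07 and -0.71; the clone 1 values were not called and the clone 2 values were. In bulk RNA, fewer cells in cycle and less RNA per cycling cell cannot be told apart. Of 31 nuclear genes of oxidative phosphorylation, 0 were called lower in clone 1 and 18 in clone 2, with 0 and 0 higher, and the difference called 15 lower and 0 higher, to be read against the same shares of all genes.

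Stress genes had lower interactions in clone 2 than in clone 1 as well, with most of their calls in clone 1 positive. Of 21 genes for chaperones of the endoplasmic reticulum and XBP1 targets, clone 1 had 10 higher and 0 lower (3.57% and 3.44% of all genes), clone 2 0 higher and 5 lower (7.43% and 14.8%), and the difference called 0 higher and 16 lower (10.8% and 18.9%). With each chromosome centred, 9 were lower in clone 2. Sdf2l1, a chaperone partner in the endoplasmic reticulum, had 1.37 (adjusted p = 0.00044) in clone 1 and 0.20 (adjusted p = 0.62) in clone 2, and Manf, a secreted stress protein, had 0.58 (adjusted p = 1.9e-05) in clone 1 and -0.18 (adjusted p = 0.11) in clone 2. On the list of amino acid and ATF4 targets, 9 of 29 tested were called higher and 0 lower in clone 1 and 3 higher and 12 lower in clone 2, and the difference called 18 lower and 1 higher. Cebpb, a transcription factor of that list, was higher in each clone, with 0.66 (adjusted p = 0.0021) in clone 1 and 0.77 (adjusted p = 9.9e-05) in clone 2. On the list of oxidative stress and NRF2 targets, 8 of 21 were called higher and 0 lower in clone 1 and 3 higher and 8 lower in clone 2, and the difference called 14 lower and 1 higher. The clone 1 count was 5 of 9 for the ATF4 list without control 3D replicate 1 or 2 or clone 1 3D replicate 2, and 5 of 8 for the NRF2 list without control 3D replicate 1 or clone 1 3D replicate 1. Nqo1 stood in 2D at 20.2 and 12.4 in the control, 13.1 and 14.6 in clone 1, 14.3 and 12.5 in clone 2 and in 3D at 56.9 and 61.5 in the control, 156 and 150.2 in clone 1, 50.3 and 47.3 in clone 2 (CPM). Nqo1 is the NRF2 target that reduces quinones. In 2D the groups overlapped, and in 3D clone 1 was above and clone 2 below the control. The difference of the clones was -1.61 ± 0.18 (SE, adjusted p = 1.8e-07). Gsta4, a glutathione transferase, had 2.29 (adjusted p = 7e-12) in clone 1 and 0.17 (adjusted p = 0.51) in clone 2, and Hmox1, heme oxygenase, had 1.17 (adjusted p = 7.5e-05) in clone 1 and -0.08 (adjusted p = 0.83) in clone 2. The NRF2 and ATF4 lists share Slc7a11, which was called in each clone.

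Interferon-response genes had higher interactions in clone 2 than in clone 1. Of 25 tested genes of 28, clone 1 had 0 higher and 3 lower and clone 2 11 higher and 0 lower, beside 3.57% and 3.44% of all genes in clone 1 and 7.43% and 14.8% in clone 2. The difference called 12 higher in clone 2 and 1 lower, beside 10.8% and 18.9% of all genes. With a stricter filter on low counts, which tests fewer genes, 6 were called higher in clone 2. Their medians were -0.11 and 0.91, or -0.33 and 0.91 without 4 genes with 3 counts or fewer in some group. Oasl2, an antiviral protein of the oligoadenylate synthetase family, had the largest positive difference of the clones among the genes that met the limits on level and counts. Oasl2 stood in 2D at 2.24 and 1.96 in the control, 1.19 and 1.77 in clone 1, 0.597 and 1.42 in clone 2 and in 3D at 15.8 and 15.4 in the control, 6.49 and 6.86 in clone 1, 36.2 and 32.2 in clone 2 (CPM). All 3D libraries were above all 2D libraries, with clone 2 above and clone 1 below the control in 3D. Its difference was 2.96 ± 0.42 (SE, adjusted p = 6.1e-06), with -0.70 (adjusted p = 0.28) in clone 1 and 2.26 (adjusted p = 7.4e-05) in clone 2. Irf9, a subunit of the interferon-activated factor ISGF3, had -0.11 (adjusted p = 0.84) in clone 1 and 1.06 (adjusted p = 0.00026) in clone 2. Of 17 tested genes of 18 on the MHC class I list, clone 2 had 8 higher and 2 lower and clone 1 1 and 0; the 8 (beside 7.43% of all genes) were 4 without control 3D replicate 1 and 5 without control 3D replicate 2 or clone 2 3D replicate 2. Nlrc5, the activator of MHC class I transcription, was the one called higher in the mean. Nlrc5 stood in 2D at 22.1 and 22.3 in the control, 3.49 and 3.78 in clone 1, 1.46 and 1.07 in clone 2 and in 3D at 27.6 and 27.3 in the control, 5.77 and 7.31 in clone 1, 10.2 and 10.4 in clone 2 (CPM). Both clones were below the control in both formats, and clone 2 was less far below it in 3D. The interaction of Nlrc5 was 1.62 ± 0.19 (SE, adjusted p = 1.9e-06), with 0.55 (adjusted p = 0.13) in clone 1 and 2.68 (adjusted p = 2.2e-08) in clone 2. H2-Q4, a class I heavy chain with near-identical relatives, had -0.11 (adjusted p = 0.65) in clone 1 and 0.56 (adjusted p = 0.00087) in clone 2. Of 14 fatty acid synthesis genes, clone 2 had 8 higher and 1 lower (7.43% and 14.8% of all genes) and clone 1 0 and 2 (3.57% and 3.44%). With each chromosome centred the clone 2 median went from 0.35 to 0.19 and its higher calls to 5. On that list was Fasn, fatty acid synthase, at 0.37 in clone 2 and -0.03 in clone 1. Of 24 tested genes of cholesterol synthesis, clone 2 had 8 higher and 0 lower and clone 1 0 and 3, beside the same shares of all genes; the 8 were 2 to 5 without control 3D replicate 1 or 2 or clone 2 3D replicate 1 or 2.

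**Figure D5:**
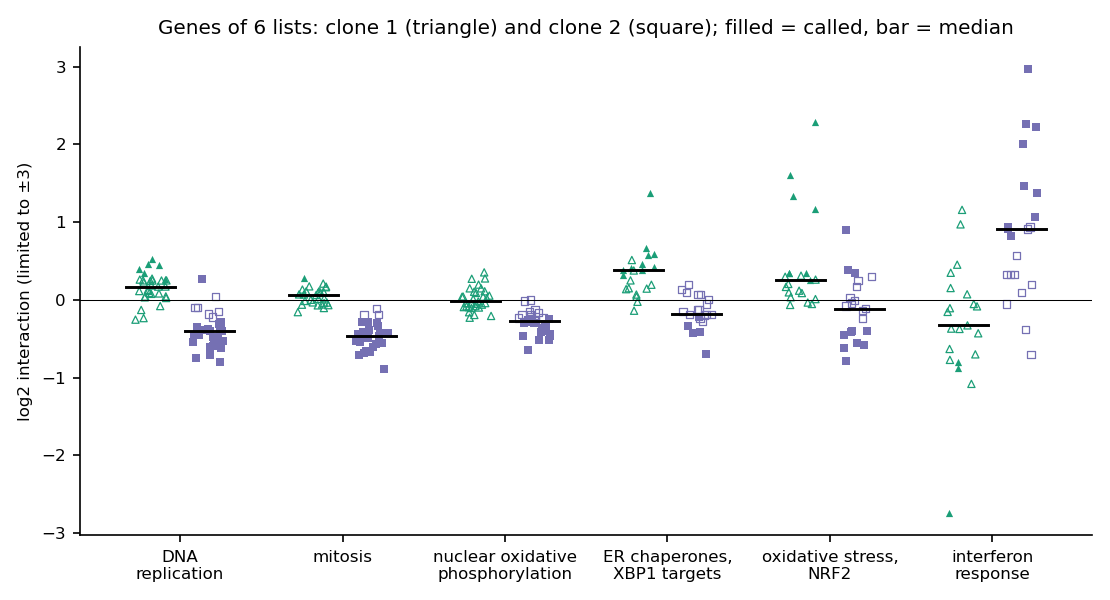
Each point is a gene of 1 of 6 lists, with its log2 interaction in clone 1 (triangles) and clone 2 (squares); filled points were called, bars are medians, values are limited to ±3, and genes with 3 counts or fewer in some group are left out. Clone 2 lies below clone 1 for replication, mitosis, oxidative phosphorylation, chaperones and NRF2 targets, and above it for the interferon list.

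Single genes showed the divergence at its strongest. Cp encodes ceruloplasmin, a copper-carrying ferroxidase. Cp stood in 2D at 33.2 and 34.7 in the control, 2.45 and 2.09 in clone 1, 9.6 and 9.81 in clone 2 and in 3D at 97.7 and 93.3 in the control, 6.49 and 5.9 in clone 1, 194 and 186 in clone 2 (CPM). Clone 1 stayed far below the control in both formats, whereas clone 2 was below it on plastic and above it in collagen. The difference of the clones was 2.86 ± 0.24 (SE, adjusted p = 2e-09). Itgb2, the beta-2 integrin chain, had 2.88 ± 0.31 (SE, adjusted p = 1.3e-07), Amigo2, an adhesion protein, had 2.83 ± 0.27 (SE, adjusted p = 1.6e-08), and Gpnmb, a transmembrane glycoprotein, had 2.79 ± 0.40 (SE, adjusted p = 7e-06). Itgb2 is best known from leukocytes, whose other markers are given above at a few CPM, mostly of Cd68. In clone 2 in 3D, Cd68 stood at 8.39 and 7.33, Csf1r at 0.52 and 1.02 and Ptprc at 0.035 and 0.036 (CPM). The part of leukocytes in this result was not tested. Itgb2 stood in 2D at 16.4 and 18.8 in the control, 2.03 and 3.29 in clone 1, 6.78 and 5.76 in clone 2 and in 3D at 19.1 and 19.2 in the control, 1.25 and 1.29 in clone 1, 22.6 and 22.8 in clone 2 (CPM). Clone 2 was below the control in 2D and above it in 3D, and clone 1 was far below it in both.

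In the other direction stood Prl2c3 and Prl2c2, proliferin genes of the prolactin family. Prl2c3 had -3.74 ± 0.14 (SE, adjusted p = 1.6e-16) and Prl2c2 -3.38 ± 0.46 (SE, adjusted p = 3.2e-06); near-identical copies make the division of reads among these genes uncertain. Prl2c3 stood in 2D at 12.5 and 10.2 in the control, 31.7 and 28.6 in clone 1, 13.8 and 11.5 in clone 2 and in 3D at 52 and 53.1 in the control, 352 and 338 in clone 1, 10.5 and 11.4 in clone 2 (CPM). In collagen clone 1 exceeded the control several fold and clone 2 was below it. Anxa8, an annexin, had -3.19 ± 0.31 (SE, adjusted p = 2.3e-08), and Pcsk6, a proprotein convertase, had -3.16 ± 0.30 (SE, adjusted p = 1.5e-08). Pcsk6 stood in 2D at 5.38 and 5.4 in the control, 35.6 and 36.1 in clone 1, 3.15 and 3.63 in clone 2 and in 3D at 2.92 and 2.54 in the control, 38.6 and 40.5 in clone 1, 0.49 and 0.328 in clone 2 (CPM). Clone 1 was the highest group in both formats, and clone 2 was the lowest in both. Adgrg3, an adhesion G protein-coupled receptor, had -3.15 ± 0.18 (SE, adjusted p = 1.1e-12). Adgrg3 stood in 2D at 51.2 and 46.5 in the control, 1.89 and 1.53 in clone 1, 54.4 and 60.8 in clone 2 and in 3D at 124 and 122 in the control, 34 and 32.6 in clone 1, 128 and 121 in clone 2 (CPM). Here clone 1 alone was low, and less so in collagen.

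Genes known to act near Etv4 had no common direction. Of 20 tested genes of 21 on the PEA3 and ERK feedback list, 4 were called higher and 4 lower in the mean, beside 2.83% and 5.18% of all genes, with a median of 0.09. Dusp5, a phosphatase that acts on nuclear ERK, was called in opposite directions in the clones, with 1.28 (adjusted p = 8.3e-09) in clone 1 and -0.35 (adjusted p = 0.023) in clone 2; 22.1% of its exon length overlaps a gene on the other strand. Spry2, a feedback inhibitor of receptor signalling, had -0.41 ± 0.09 (SE, adjusted p = 0.004). Of 26 immediate early genes 6 were called higher and 1 lower in the mean, 10 and 0 in clone 1 and 2 and 4 in clone 2, beside 3.57% and 3.44% of all genes in clone 1 and 7.43% and 14.8% in clone 2. The 6 higher calls in the mean were 0 without control 3D replicate 1 and with limma voom with a spread for each format, 2 without control 2D replicate 1, control 3D replicate 2 or clone 1 2D replicate 1, and 3 without clone 2 2D replicate 2, clone 1 3D replicate 2 or either clone 2 3D replicate. Nr4a1, an orphan nuclear receptor, had 0.67 (adjusted p = 0.034) in clone 1 and 0.67 (adjusted p = 0.017) in clone 2, and Klf10, a TGF-beta induced factor, -0.08 (adjusted p = 0.7) in clone 1 and -1.07 (adjusted p = 2.3e-08) in clone 2. Of 21 YAP targets 3 were called higher and 1 lower in the mean, beside 2.83% and 5.18% of all genes. Clone 1 had 2 higher and 5 lower and clone 2 had 5 and 2, beside the shares of all genes just given. The difference of the clones called 9 higher and 5 lower (10.8% and 18.9% of all genes). The higher calls of clone 1 were Cyr61 and Ctgf. Cyr61 stood in 2D at 266 and 275 in the control, 323 and 351 in clone 1, 271 and 259.9 in clone 2 and in 3D at 113 and 117 in the control, 413 and 435 in clone 1, 95.7 and 96.4 in clone 2 (CPM). Cyr61 encodes a matricellular protein of the CCN family. In clone 1 the 3D libraries were above the 2D libraries, and in the control and clone 2 they were below them. The interaction of Cyr61 was 1.57 (adjusted p = 1.4e-13) in clone 1 and -0.23 (adjusted p = 0.032) in clone 2. Ctgf, of the same family, had 1.02 (adjusted p = 2.8e-06) in clone 1 and 0.45 (adjusted p = 0.01) in clone 2.

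The lists that follow had more calls in the difference of the clones than in the mean, as did all genes tested. Over all genes the shares called higher and lower were 2.83% and 5.18% in the mean, 3.57% and 3.44% in clone 1, 7.43% and 14.8% in clone 2, and 10.8% and 18.9% in the difference of the clones. Of 17 heat shock genes 0 were called higher and 1 lower in the mean, 1 and 0 in clone 1, 0 and 7 in clone 2, and 0 and 9 in the difference of the clones. For 18 p53 targets the same counts were 2 and 1 in the mean, 2 and 0 in clone 1, 1 and 3 in clone 2 and 2 and 7 in the difference. For 26 lysosomal genes they were 0 and 2 in the mean, 0 and 2 in clone 1, 2 and 5 in clone 2 and 6 and 9 in the difference. The 24 epithelial and mesenchymal genes had 2 and 4 in the mean, 2 and 4 in clone 1, 3 and 7 in clone 2 and 6 and 6 in the difference. The 18 Notch and Wnt targets had 2 and 1 in the mean, 3 and 0 in clone 1, 1 and 4 in clone 2 and 3 and 4 in the difference. Cdkn1a, the cell cycle inhibitor p21, was the p53 target called lower in the mean. Cdkn1a stood in 2D at 0.559 and 0.944 in the control, 0.349 and 1.21 in clone 1, 2.55 and 4.2 in clone 2 and in 3D at 54.7 and 54.3 in the control, 47.5 and 48.2 in clone 1, 32.5 and 34.4 in clone 2 (CPM). It was near 1 CPM or below in the control and clone 1 on plastic, higher in clone 2 there, and highest in the control in collagen. Its interaction was -1.50 ± 0.40 (SE, adjusted p = 0.02), with -0.18 (adjusted p = 0.93) in clone 1 and -2.82 (adjusted p = 3e-06) in clone 2. With limma voom with a spread for each format, the mean interaction of Cdkn1a was -1.39 (adjusted p = 0.12) and not called. Without clone 1 2D replicate 2 it was -0.95. Jag1, a Notch ligand, had -0.41 ± 0.09 (SE, adjusted p = 0.0033). Krt19, a simple-epithelial keratin, had -0.63 ± 0.08 (SE, adjusted p = 1.1e-05), and Krt14, a basal keratin picked for its clone difference after its values were seen, had 1.58 (adjusted p = 2.1e-08) in clone 1 and -1.28 (adjusted p = 1.6e-07) in clone 2. Of the 8 mammary carcinoma markers 0 were called higher and 3 lower.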

How the data were processed

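The files are 2 tables of raw counts per gene deposited by the authors, 1 for the 2D and 1 for the 3D libraries, with 31017 gene symbols each; per the labels, libraries were polyA RNA made with a stranded mRNA kit. Per the submitters' processing notes, FastQC 0.11.9, STAR 2.7.9a, featureCounts, R 4.1.1 and Cell Ranger 3.0.0 were used with mm10; whether counting used strand is not given in the sources used here. The tables were joined by symbol and no count was changed. edgeR 4.0.16 (R 4.3.3) fitted 6 group means with TMM scaling, filterByExpr and the quasi-likelihood test (6 residual degrees of freedom), and p-values were adjusted by Benjamini-Hochberg over all 13763 genes tested. Contrasts were the interaction of the mean of both clones, of each clone, and clone 2 minus clone 1. The biological coefficient of variation was 6.83% among the 2D and 2.75% among the 3D libraries. The fit was also run on simulated counts in which a gene had the same spread in both formats. That run therefore cannot check the effect of the unequal spread of the 2D and 3D libraries.

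The members, gene lists and rules were chosen with earlier results of these data known. Named genes were Etv4, Etv1 and Etv5; the 12 largest interactions in each direction called in the mean and in each clone with 1 sign, with a mean of at least 5 CPM, at least 10 counts in every group and an official symbol; the 5 largest clone differences each way under the same limits; and up to 4 genes of each of 30 lists with the smallest p. A few genes that these rules name are not reported here; counts and medians over lists and over all genes include them. Alternatives were DESeq2 1.42.0, RLE factors, other filters, limma 3.58.1 voom with a spread for each format, a replicate block, Gm26917 and Gm42418 left out, 3D libraries thinned to 2D depth, chromosomes centred, genes without overlap and each library left out. Positions and overlaps came from GENCODE M21, which places 13635 of the tested genes.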

Additional observations from a re-analysis of the deposited data

Results flagged for a closer look

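Each result below is a difference between the formats or between the clones that passed the edgeR test of the difference itself, the interaction contrast, at an adjusted p under 0.05. For the mean of both clones the knockout minus control difference was higher in 3D than in 2D for 389 genes and lower for 713, whatever the direction of their levels between the formats. Between the clones the interaction was higher in clone 2 for 1491 genes and lower for 2604.

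Named genes whose knockout minus control difference was higher in 3D than in 2D had log2 interactions of 3.05 for C3, 2.62 for Mmp3, 1.53 for Psg17, 1.28 for Cxcl5, 1.20 for Slc4a11, 1.15 for Cxcl1 and 1.12 for Slc7a11. The smaller ones were 1.08 for mt-Nd6, 1.05 for Stab1, 1.03 for Ppif and 1.03 for Olfm1. The difference from the control was lower in 3D than in 2D for Txnip at -1.95, Sparc at -1.72, Id2 at -1.48, Arrdc3 at -1.30, Pthlh at -1.19, Lypd3 at -1.19 and Tbc1d8 at -1.18. The smaller ones were -1.12 for Pdcd4, -1.11 for Npr2, -1.10 for Bnip3, -1.07 for Mrgpre and -1.04 for Cubn.

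Between the clones, clone 2 minus clone 1 was 2.96 for Oasl2, 2.88 for Itgb2, 2.86 for Cp, 2.83 for Amigo2 and 2.79 for Gpnmb on the log2 scale. It was -3.74 for Prl2c3, -3.38 for Prl2c2, -3.19 for Anxa8, -3.16 for Pcsk6 and -3.15 for Adgrg3.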

How the results depend on the processing

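In the mean contrast, 19 of 23 genes named for the interaction were called with the same sign under all 23 alternatives that tested them. There, mt-Nd6, Pthlh, Npr2 and Mrgpre were not called under some, and as a difference of CPM differences Npr2 (1.60) and Mrgpre (0.674) reversed. The naming rule also asked for a call in each clone, which fewer genes kept throughout. Psg17, Stab1 and Lypd3 in clone 1 and Slc7a11 and Pdcd4 in clone 2 also lost that call under some alternatives. For Lypd3 in clone 1 the adjusted p was 0.078 with DESeq2 and 0.056 in edgeR with RLE factors. All 10 genes named for the clone difference were called with the same sign throughout. Counts that moved by over 1.5 times in the mean were 592 higher with no filter on low counts, 459 lower without Gm26917 and Gm42418, and 177 higher and 376 lower among genes without overlap, where fewer genes were tested. In clone 1 they were 309 higher with thinned 3D libraries and 232 higher and 234 lower among genes without overlap, in clone 2 446 and 986 among genes without overlap, and for the clone difference 645 and 1208. With 1 library left out, the lone library of a group is assumed to vary like the others. Higher and lower counts then ranged from 134 to 499 and 269 to 909 in the mean, 206 to 653 and 223 to 624 in clone 1, 597 to 1138 and 1286 to 2220 in clone 2, and 1075 to 1686 and 1831 to 2864 for the clone difference. DESeq2 called 921 genes in the mean, 863 of them among the 1102. The labels do not say whether same-numbered libraries of different groups were handled together. Their deviations correlated between -0.117 and 0.165 over the pairs of groups. A replicate block over both formats gave 938 calls in the mean (324 higher, 614 lower) and a block within each format 957 (338 and 619); it moved no count by over 1.5 times. Depth limits the 2D side, where several genes named above rest on fewer than 100 counts per group.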

Other observations

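In clone 2 the interaction was uneven along the genome. On chromosome 1, 780 genes were tested and their median interaction in clone 2 was -0.25, with 18 called higher and 231 lower, beside 7.43% and 14.8% of all genes, while in clone 1 the median was 0.04. Clone 2 stood below the control there in both formats, with a median of -0.29 in 2D and -0.53 in 3D. On chromosome 11, the chromosome of Etv4, clone 2 had 194 of 1124 genes called higher and 56 lower, beside the same shares, with a median of 0.13. What this pattern rests on was not tested.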
